A study of Homo sapiens with 18 samples.

Results

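The genes HMCN1, RNF182, PRICKLE2, NAV2, OGFRL1, KIF26B, PRKD1, PDE11A and ZNF502 were taken from a table of 55765 gene symbols for large differences between 2 RB1-deleted clones of one tumour line. They were chosen by their normalised counts in the E1 and F2 libraries, for a difference in level or in the response to a drug, with no numerical limit stated. All 9 genes passed the filter for testing, a mean of at least 10 normalised counts over 18 libraries, which 16154 genes passed. The comparison of E1 with F2 is therefore described without a test. The same holds for each clone against the control line or across treatments, which use the same libraries. "On-off" holds only in part. With the solvent ZNF502, PRICKLE2 and PDE11A had no reads in 1 clone, and HMCN1 and RNF182 had 1 read. NAV2, OGFRL1 and KIF26B were low but present in E1, and PRKD1 was at or near the floor in both clones.

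The libraries came from G401, a SMARCB1-deficient malignant rhabdoid tumour line, as poly(A)-selected, strand-marked, paired-end RNA-seq. The control line (labelled WT) was edited by CRISPR/Cas9 at AAVS1, a safe harbour site, and has intact RB1; whether it is a clone or a pool is not given in the sources used here. E1 and F2 are each 1 clone with a biallelic RB1 deletion, so what separates them cannot be told apart from clone differences that have nothing to do with RB1. Each line received DMSO or 10 µM tazemetostat for 11 days, with 3 biological replicates in each of the 6 groups.

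Tazemetostat inhibits EZH2, the catalytic subunit of Polycomb repressive complex 2, which methylates histone H3 at lysine 27 and keeps developmental genes silent. SMARCB1 is a core subunit of the SWI/SNF chromatin remodelling complex, which opposes Polycomb silencing, and rhabdoid tumours arise through its loss. RB1 encodes the retinoblastoma protein, which holds back E2F transcription factors. Polycomb silencing can be passed on through cell division. The 9 genes encode an extracellular matrix protein, a ubiquitin ligase, planar polarity and cytoskeletal proteins, a kinase, a phosphodiesterase, a zinc finger protein and one little-studied protein.

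Depth ran from 25709489 to 39314860 reads per library, and 3 reads, taken as the floor, corresponded to 2.62 to 3.69 normalised counts. RB1 itself was at 2694 ± 132 normalised counts (SD, n = 3) in the control line with DMSO, 647.8 ± 138 in E1 and 838.8 ± 30.5 in F2, so RB1 reads were fewer in the clones but not absent. SMARCB1 had 0 reads in all 18 libraries. Of 8 marker genes of blood, endothelium and epithelium, none was at 0 in every library, and CDH1, an epithelial cadherin, was the highest with up to 422 normalised counts. The summed marker level was 25.9 to 39.0 in E1 with DMSO against 136 to 471 in the other 5 groups. The sum mostly followed CDH1. With DMSO CDH1 was at 15.9 ± 8.74 in E1, 256.2 ± 26.4 in the control line and 148.7 ± 30.0 in F2. EPCAM, the other epithelial marker, was at 9.14 ± 0.96, 14.0 ± 2.65 and 16.4 ± 4.33. The part of these markers in the results below was not tested. In bulk RNA, fewer cells expressing a gene and less RNA per cell cannot be told apart.

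**Figure D1:**
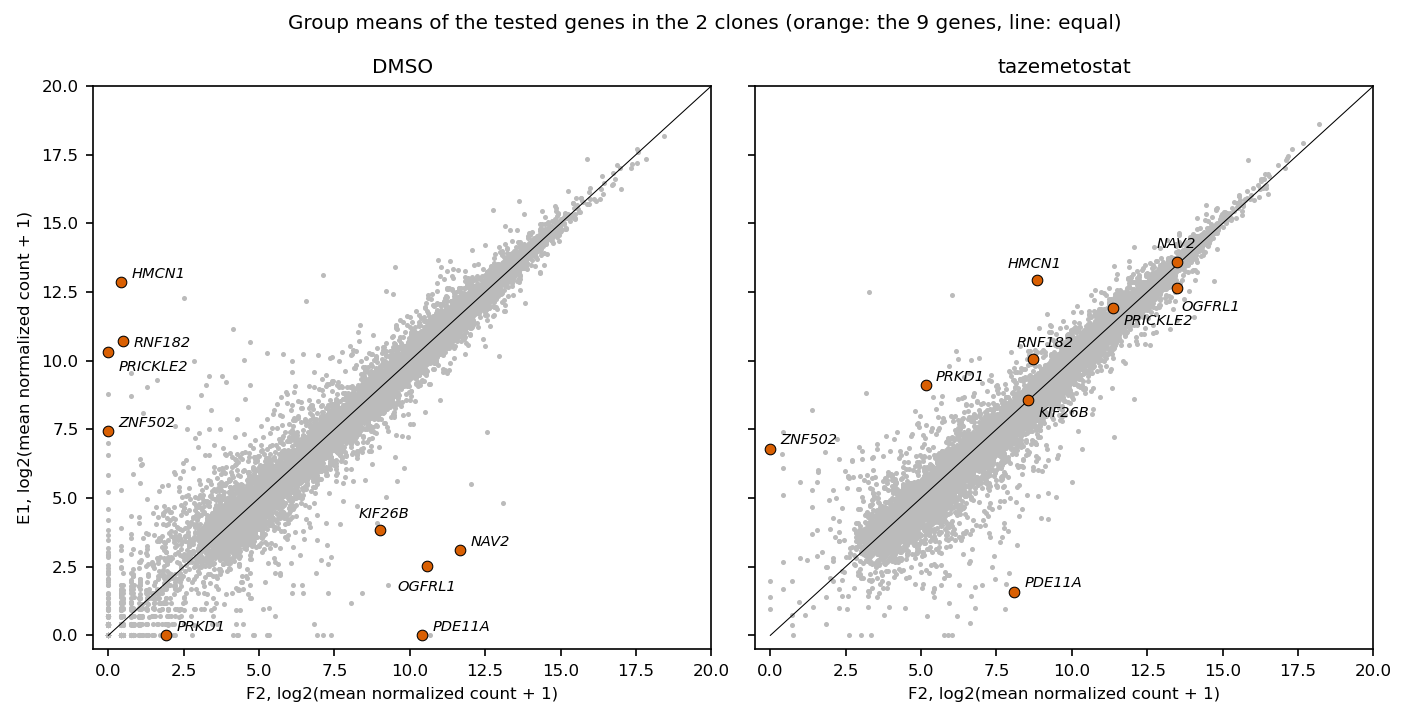
Each point is 1 gene, with its mean in clone F2 and in clone E1 on log2(mean normalised count + 1) axes, for DMSO and for tazemetostat, and the 9 chosen genes in orange. With DMSO all 9 lie off the diagonal; with tazemetostat NAV2 and KIF26B lie on it, while ZNF502 and PDE11A stay at or near the edge of the plot.

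HMCN1, RNF182 and PRICKLE2 were high in E1, absent or nearly so in F2, and low in the control line when only DMSO was given. HMCN1 encodes hemicentin 1, a large secreted protein of the extracellular matrix. With DMSO its E1 libraries held 8588, 5273 and 8619 normalised counts, its control libraries 113.5, 136.7 and 200.6, and its F2 libraries 0, 1.04 and 0. The 3 lines did not overlap, and the ratio of E1 to F2, which rests on 1 F2 read, was 20784, with a 95% counting interval of 3730 to 820954. E1 was 49.9 times above the control line. With tazemetostat F2 held 378.7, 529.9 and 473.6, which is 1272 times its DMSO level (interval 228 to 50264), and E1 held 8659, 6459 and 8247, which overlapped its DMSO values. The order of the lines, E1 above control above F2, was thus the same under both treatments, with E1 16.9 times above F2 under the drug.

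RNF182 encodes a RING-type E3 ubiquitin ligase. With DMSO the E1 libraries held 1626, 1505 and 1892 normalised counts, the control libraries 150.2, 130.1 and 141.9, and the F2 libraries 0, 0 and 1.21. E1 was 4623 times above F2, with a counting interval of 829 to 182628 that rests on 1 read. With tazemetostat F2 reached 465.1, 371.4 and 415.3, or 1155 times its DMSO mean (interval 207 to 45653). E1 went the other way, with 954, 1162 and 1051 under the drug, all below its DMSO libraries, which were 1.59 times higher in the mean. Under the drug the 3 group means lay within 2.53 times of each other, without overlap between E1 and F2.

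PRICKLE2 encodes a cytoplasmic protein of the planar cell polarity pathway, which orients cells within the plane of a tissue. No read fell on it in any F2 library with DMSO, against 1423, 1034 and 1333 normalised counts in E1 and 68.1, 67.9 and 63.4 in the control line. Set against the floor of 3 reads per library, E1 was at least 385-fold higher than F2 and the control line at least 20.2-fold higher. With tazemetostat F2 held 2474, 2757 and 2680, at least 805-fold higher than with DMSO, and E1 held 3931, 3916 and 3794, or 3.07 times its DMSO mean. The clones, at least 385-fold apart with DMSO, were 1.47 times apart with the drug. PRICKLE2-AS3, an antisense RNA named for the gene, was at 93.1 ± 16.7 (SD, n = 3) in the control line, 41.4 ± 4.73 in E1 and 12.7 ± 4.91 in F2 with tazemetostat, and had 1 read in all DMSO libraries together. Whether the counting used the strand is not given in the sources used here, so reads of the pair cannot be told apart with certainty.

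NAV2, OGFRL1 and KIF26B had the mirror pattern with DMSO: high in F2, low in E1 and low in the control line. NAV2 encodes a neuron navigator protein, which binds the cytoskeleton and is known for roles in axon outgrowth. Its F2 libraries with DMSO held 3031, 3041 and 3639 normalised counts, its control libraries 23.6, 33.0 and 37.9, and its E1 libraries 8.04, 11.6 and 2.92. F2 was 431 times above E1 and 103 times above the control line. With tazemetostat the control line held 12244, 11837 and 13104, E1 held 13107, 11388 and 12193, and F2 held 11130, 11893 and 11830. E1 and F2 overlapped there, and the 3 group means lay within 1.07 times of each other. The level with the drug over that with DMSO was therefore 1627 in E1 and 3.59 in F2. The annotated antisense and intronic RNAs of NAV2 had at most 17 reads in any group.

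OGFRL1 encodes opioid growth factor receptor like 1, whose function is little studied. With DMSO F2 held 1552, 1572 and 1422 normalised counts, the control line 182.6, 50.9 and 75.7, and E1 4.46, 9.65 and 0. No library of one line overlapped another line, although the control libraries differed among themselves more than those of F2. F2 was 322 times above E1. With tazemetostat the means were 14440 ± 744 in the control line, 6465 ± 602 in E1 and 11616 ± 321 in F2 (SD, n = 3). E1 was 1374 times above its DMSO level and F2 7.67 times, and the drug-treated clones stayed 1.80 times apart without overlap.

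KIF26B encodes an atypical kinesin that acts with WNT5A and ROR receptors and is needed for kidney development. With DMSO F2 held 455.9, 528 and 546.1 normalised counts, against 13.4, 13.5 and 12.7 in E1 and 8.73, 10.4 and 17.0 in the control line. E1 and the control line overlapped, and F2 was 38.7 times above E1. With tazemetostat E1 held 390.7, 331.7 and 404.2 and F2 held 359.2, 387.6 and 369.1, which overlapped. F2 was 1.37 times lower with the drug than with DMSO, without overlap, while E1 was 28.5 times higher. The DMSO mean of F2, 510.0, lay between the drug-treated means of E1, 375.6, and of the control line, 581.3.

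**Figure D2:**
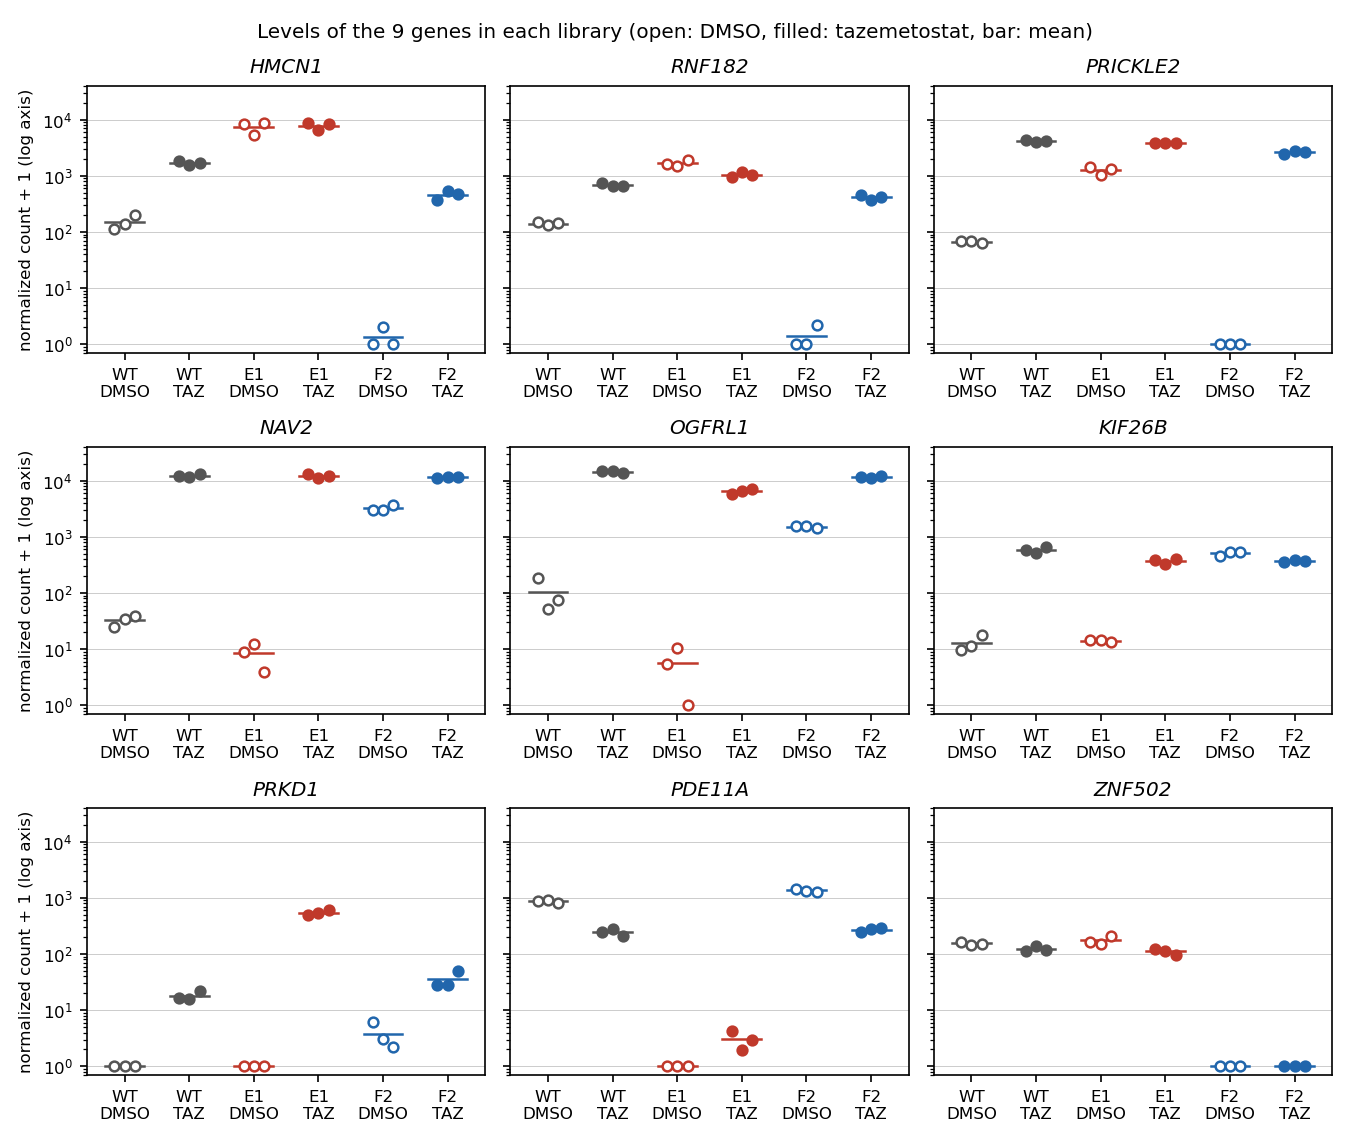
Normalised count + 1 of the 9 genes on a logarithmic axis, 1 panel per gene, for the control line (WT), E1 and F2, with open points for DMSO, filled points for tazemetostat and bars for the mean of 3 libraries. In the NAV2, OGFRL1 and KIF26B panels the filled points of all 3 lines lie high, whereas the ZNF502 points of F2 and the PDE11A points of E1 stay at the bottom under both treatments.

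PRKD1 encodes protein kinase D1, a serine/threonine kinase activated by diacylglycerol and protein kinase C. It had no read in the control line or in E1 with DMSO, and 5, 2 and 1 reads in the F2 libraries. With tazemetostat E1 held 495.1, 542.6 and 603.9 normalised counts, the control line 15.8, 14.96 and 20.9, and F2 27.2, 27.3 and 49.0. E1 was at least 193-fold above its DMSO level and the control line at least 6.23-fold above its own, whereas F2 was 12.0 times above (counting interval 5.89 to 28.6). Here the clones differed with the drug, E1 being 15.9 times above F2 and 31.8 times above the control line, and with DMSO they were both at or near the floor. A difference between the clones with DMSO cannot be read from 0 and 8 reads.

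PDE11A and ZNF502 were off in 1 clone whatever the treatment. PDE11A encodes a phosphodiesterase that breaks down both cyclic AMP and cyclic GMP. With DMSO it was at 878.7, 909.5 and 802.5 normalised counts in the control line and 1448, 1353 and 1279 in F2, and had no read in E1. F2 was at least 480-fold above E1, and the control line at least 304-fold. With tazemetostat the 3 E1 libraries had 6 reads together, against 244.4, 275 and 213.1 in the control line and 244.7, 279.6 and 285.8 in F2. F2 was then 137 times above E1 (counting interval 62.5 to 373). In the other lines the drug-treated level was lower, the DMSO level being 3.54 times higher in the control line and 5.04 times higher in F2.

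ZNF502 encodes a C2H2 zinc finger protein, a class that mostly binds DNA. No read fell on it in any of the 6 F2 libraries. The control line held 165.1, 146.1 and 148.6 normalised counts with DMSO and 111.4, 135.6 and 117 with tazemetostat, and E1 held 160.7, 147.7 and 212.4, then 123.5, 111.2 and 96.1. E1 was at least 53.0-fold above F2 with DMSO and at least 37.9-fold with the drug. E1 and the control line overlapped under DMSO, so F2 was the line that stood apart.

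Promoters of 4 genes stand for these patterns, to show how different the sequence before the start site is among genes that behave alike or apart. Each is the 250 bases before the first start site listed for the gene by RefSeq (GRCh38.p14, a later build than the hg19 of the deposited table), 5′ to 3′ on the gene's strand, with CpG dinucleotides, the bases that can carry DNA methylation, in capitals. PRICKLE2 was off in F2 until the drug was given, OGFRL1 was nearly off in E1 until then, PDE11A was off in E1 and ZNF502 off in F2 under both treatments. Their positions are chr3:64268174-64268423 on the minus strand, chr6:71288561-71288810 on the plus strand, chr2:178108340-178108589 on the minus strand and chr3:44712410-44712659 on the plus strand.
PRICKLE2: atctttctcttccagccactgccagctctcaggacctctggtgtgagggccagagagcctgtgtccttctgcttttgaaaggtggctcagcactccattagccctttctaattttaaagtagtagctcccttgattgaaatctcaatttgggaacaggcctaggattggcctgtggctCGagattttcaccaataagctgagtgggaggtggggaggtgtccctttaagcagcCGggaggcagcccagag
OGFRL1: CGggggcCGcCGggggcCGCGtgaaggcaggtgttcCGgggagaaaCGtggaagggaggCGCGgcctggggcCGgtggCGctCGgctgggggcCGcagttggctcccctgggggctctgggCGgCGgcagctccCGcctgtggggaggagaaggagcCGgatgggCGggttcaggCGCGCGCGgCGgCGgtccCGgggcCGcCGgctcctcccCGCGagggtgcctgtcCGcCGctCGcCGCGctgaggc
PDE11A: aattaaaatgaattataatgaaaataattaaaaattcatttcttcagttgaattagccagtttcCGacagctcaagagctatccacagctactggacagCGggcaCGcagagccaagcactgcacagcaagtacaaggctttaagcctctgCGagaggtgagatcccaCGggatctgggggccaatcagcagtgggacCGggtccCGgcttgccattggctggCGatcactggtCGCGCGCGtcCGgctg
ZNF502: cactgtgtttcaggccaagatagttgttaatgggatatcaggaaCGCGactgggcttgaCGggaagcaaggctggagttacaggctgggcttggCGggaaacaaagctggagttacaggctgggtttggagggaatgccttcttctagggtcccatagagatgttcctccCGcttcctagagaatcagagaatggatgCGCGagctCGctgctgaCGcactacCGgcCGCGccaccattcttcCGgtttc

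The OGFRL1 window held 34 CpG, a number that 6.8% of all 35114 such windows reach, and the PRICKLE2 window held 2, which 85.3% reach. PDE11A and ZNF502 had 13 each, which 46.6% of windows reach, and the median window has 11. The PRKD1 windows held 36 and 32, and the NAV2 windows 16, 32 and 3. RNF182, nearly off in F2 until the drug was given, had windows with 5, 23 and 34, and a second PRICKLE2 window held 4. Windows were found for 7 of the 9 genes, and several genes have more than 1 annotated start: NAV2 has 15 in GENCODE release 29 and PDE11A 12, and the counts do not say which start was used. Searched on both strands, the E2F-type motif TTTNNCGC was in 1 of 16 windows, that of ZNF502, and 5.9% of all windows hold it. The GC-box core GGGCGG occurs in 42.6% of windows and had 2 matches in the OGFRL1 window and none in the other 3 printed.

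The response of the control line to tazemetostat was tested with limma on log2(normalised count + 1), adjusting over all 16154 genes. Its libraries were not part of the rule that picked the genes. That rule used the drug response of clones of the same G401 line, so the control line's response is not independent of it. The counts of these genes below are therefore a description beside the shares of all genes, not separate support. A gene was called at an adjusted p below 0.05 and a log2 change of at least 1 in size. PRKD1 passed the filter on low values only through drug-treated E1 and is described apart. Of the other 8 genes 7 were called, 6 higher and 1 lower, where 21.3% of all tested genes were called, 14.5% higher and 6.77% lower. The median log2 change of the 8 was 4.53, against 0.03 over all tested genes. With every library scaled to the same total the median of all genes moved to -0.12 and the share of calls that were higher from 68.2% to 57.9%. NAV2 had the largest rise of the 9, 8.60 ± 0.27 on the log2 scale (SE; limma adjusted p = 2.5e-15), or 394 times. OGFRL1 rose by 7.32 ± 0.55, PRICKLE2 by 5.96 ± 0.10, KIF26B by 5.52 ± 0.17, HMCN1 by 3.54 ± 0.26 and RNF182 by 2.29 ± 0.22, with limma adjusted p of 2.7e-08 or less. PDE11A fell by 1.82 ± 0.20 (limma adjusted p = 1.8e-07), and ZNF502, with -0.34 ± 0.18 (limma adjusted p = 0.1), was not called.

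PRKD1 rose too (4.17 ± 0.32, limma adjusted p = 1.2e-09), but from 0 reads, so its fitted change ran from 2.14 to 7.10 over the alternative settings. In each of these 8 called genes, PRKD1 included, all 3 tazemetostat libraries lay on 1 side of all 3 DMSO libraries. The same held for ZNF502, which was not called. The share of all genes with such a separation was not computed, so nothing is read from it. For single genes, exact permutation of the 6 control-line libraries (two-sided) gave p = 0.1 in each case, and no smaller value is possible here. The replicates of a group are cultures of 1 line. The limma p-values rest on 1 spread per gene within groups, shared by all 6 groups. The E1 and F2 libraries therefore enter it, and it is not the spread of the control cultures alone.

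**Figure D3:**
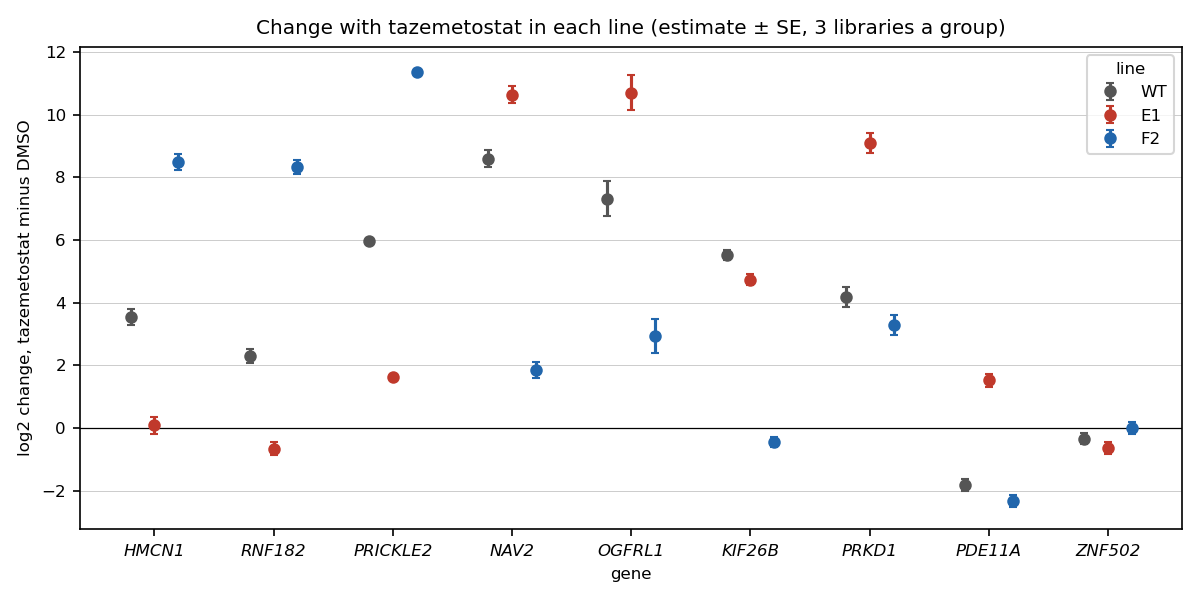
Log2 change from DMSO to tazemetostat, on the log2(normalised count + 1) scale with its SE, for each of the 9 genes in the control line (WT), E1 and F2. HMCN1, RNF182 and PRICKLE2 have their largest value in F2 (8.49, 8.32 and 11.36), whereas NAV2, OGFRL1 and PRKD1 have it in E1 (10.64, 10.70 and 9.09).

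The log2 change in E1 was 0.08 ± 0.26 (SE) for HMCN1 and -0.66 ± 0.22 for RNF182, against 8.49 and 8.32 in F2. For KIF26B it was 4.73 ± 0.17 in E1 and -0.45 ± 0.17 in F2. The comparisons of each clone share libraries with those between clones, and none is independent of how the genes were picked. The E1 and F2 libraries did not overlap for 9 of 9 genes with DMSO, where 4 were higher in E1 and 5 in F2, PRKD1 among the latter with the 0 and 8 reads given above, from which no difference is read. With tazemetostat they did not overlap for 7 of 9. Over all tested genes 7.56% were called between the clones with DMSO, 4.05% higher and 3.52% lower in E1. With tazemetostat it was 6.82%, 2.39% higher and 4.43% lower. For the difference of responses it was 5.81%, 1.78% higher and 4.02% lower in E1. These are shares of calls, a different measure from lack of overlap, whose share over all genes was not computed. Nothing is read from the counts of the 9 genes beside these shares, since the clones' values chose the genes.

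The 3 nearest protein-coding genes on either side of each gene, 54 in all, were examined to see whether the differences between the clones reached beyond the genes themselves. Gene order was taken from RefSeq, where 18968 of 20037 protein-coding genes matched a row of the table. Of the 44 neighbours that could be tested, 9 (20.5%) were called between E1 and F2 with DMSO, 3 higher and 6 lower in E1, beside 7.56% of all tested genes. Their median log2 difference was -0.06, against 0 over all tested genes. With tazemetostat 5 (11.4%) were called, beside 6.82% of all genes, and in the control line's response 9 (20.5%), beside 21.3%.

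STXBP6, which encodes a syntaxin-binding protein and is a neighbour of PRKD1, was lower in E1 with DMSO by a log2 difference of -3.37 (limma adjusted p = 4e-07). With tazemetostat it was lower in E1 by -5.68 (limma adjusted p = 6.8e-10), whereas PRKD1 was higher there. E1 had only 5 reads of STXBP6 with DMSO and 2 with the drug, near the floor, against 72 and 225 in F2. Beside RNF182, CD83, an immune cell surface protein, was higher in E1 by 2.43, and JARID2, which encodes an accessory subunit of Polycomb repressive complex 2, was lower by -2.26 (limma adjusted p = 3.3e-12 and 2.4e-11). Under the drug JARID2 was at 1436 ± 51.7 in the control line, 1471 ± 16.8 in E1 and 1495 ± 33.4 in F2. Beside HMCN1, IVNS1ABP, an actin-binding Kelch protein, was higher in E1 by 2.35 with DMSO and by 2.06 with tazemetostat (limma adjusted p = 5.8e-15 and 1.3e-13).

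PDE11A had the most neighbours called, 3 of 6, all lower in E1 with DMSO, as PDE11A was. OSBPL6, an oxysterol-binding protein, was at 3.83 ± 1.77 in E1 and 51.3 ± 7.36 in F2 (log2 difference -3.51 ± 0.21, limma adjusted p = 2.2e-10), but reached 1002 ± 31.4 and 918.1 ± 41.9 with tazemetostat, when PDE11A in E1 had 6 reads. The others were AGPS (-1.34) and TTC30B (-1.06), which were named after their values were seen. None of the tested neighbours of PRICKLE2, KIF26B, NAV2 or OGFRL1 was called between the clones with DMSO. Some passed the limit on adjusted p but not that on fold, and the largest were again named after their values were seen. B3GAT2, beside OGFRL1, differed by -0.97 ± 0.13, and E2F8, beside NAV2, by -0.89 ± 0.08 (limma adjusted p = 7.9e-06 and 3.7e-08). With tazemetostat B3GAT2 was called, at -1.25 ± 0.13 (limma adjusted p = 5.2e-07), and E2F8 was not. ZNF502 lies among other zinc finger genes, and with DMSO ZNF197 differed by -0.15 ± 0.09, ZNF35 by 0.11 ± 0.10 and KIAA1143 by -0.13 ± 0.07 (limma adjusted p = 0.19, 0.43 and 0.17), while ZNF502 had no read in F2. KIF15, a mitotic kinesin gene also named after its value was seen, was lower in E1, at 631.3 against 1353 in F2 (log2 difference -1.11 ± 0.10, limma adjusted p = 8.4e-08). ZNF501, not tested, had 15 reads in E1 and 1 in F2 with DMSO, and none in either with tazemetostat. ADAMTS9, which encodes a secreted matrix protease and lies beside PRICKLE2, had no read in either clone with DMSO and rose in the control line with tazemetostat, from 1.55 ± 1.98 to 3871 ± 207 (limma adjusted p = 2.5e-15). It too passed the filter only through drug-treated libraries.

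**Figure D4:**
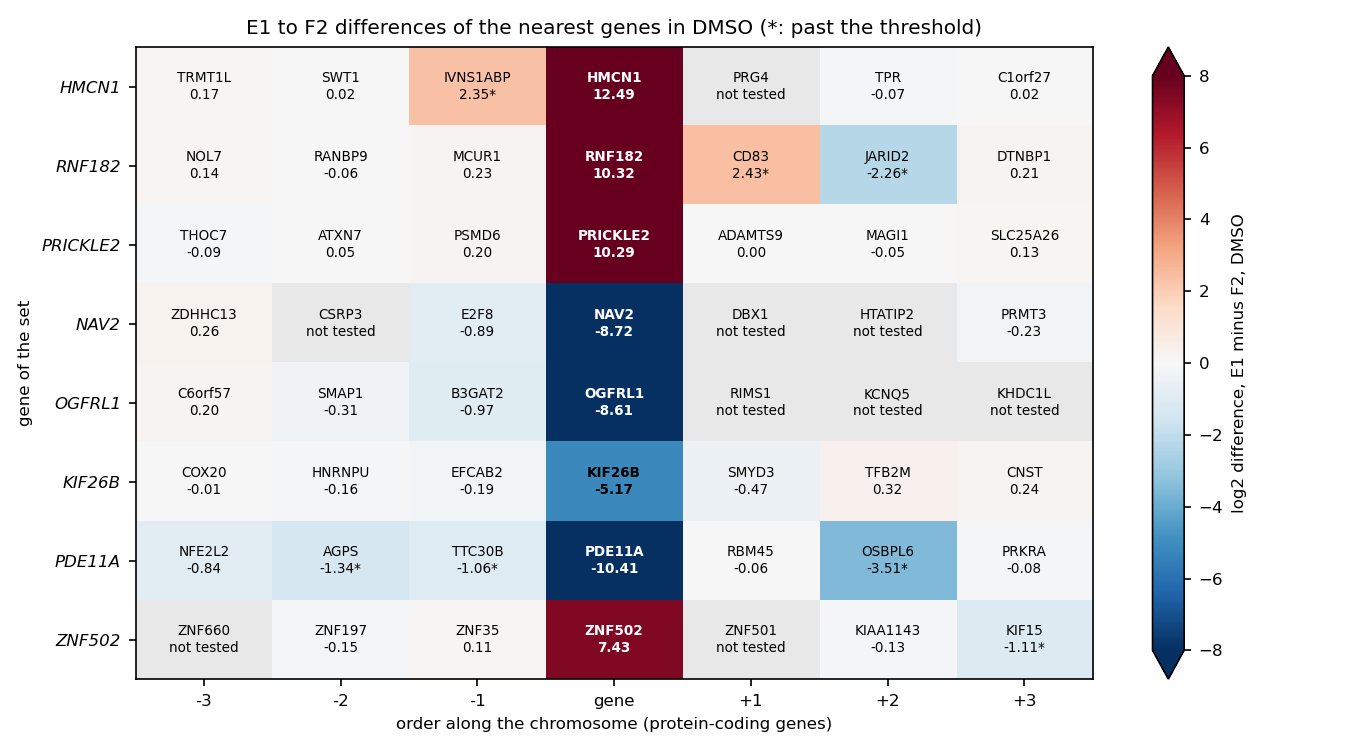
Log2 difference between E1 and F2 with DMSO for the 3 nearest protein-coding genes on either side of 8 of the 9 genes (PRKD1 is not drawn), in gene order, with a star where the limma threshold was passed. Stars stand beside PDE11A (3), RNF182 (2), HMCN1 (1) and ZNF502 (1), and none beside PRICKLE2, KIF26B, NAV2 or OGFRL1.

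Close relatives of the 9 genes were compared in the same way. Of 11 paralogues 9 were tested and 1 (11.1%, beside 7.56% of all genes) was called between the clones with DMSO, PRKD3, a protein kinase D like PRKD1. PRKD3 was at 203.7 ± 49.0 normalised counts in E1 and 1094 ± 39.6 in F2 (SD, n = 3; log2 difference -2.45 ± 0.12, limma adjusted p = 8.4e-12), with 875.6 ± 11.4 in the control line. With tazemetostat E1 held 1816 ± 126 and F2 1537 ± 41.4. PRKD3 was thus high in both drug-treated clones and not called between them (0.24 ± 0.12, limma adjusted p = 0.12). PRKD1, by contrast, was 15.9 times higher in drug-treated E1 than in drug-treated F2. PRKD2 was between 842 and 1084 in the 6 group means. In the control line's response 2 paralogues (22.2%, beside 14.5% of all genes called higher) rose, NAV3 by 6.33 ± 0.39 (limma adjusted p = 5.1e-11) and PRICKLE1 by 3.28 ± 0.10 (3.6e-15). With DMSO NAV3 had means of 1.19 in the control line, 0.322 in E1 and 0.687 in F2. It passed the filter only through drug-treated libraries, so the share of paralogues that rose is no gauge of the list. PRICKLE1 was at 34.3 ± 5.27 in the control line with DMSO and at 3799 ± 472 and 3513 ± 155 in E1 and F2, with no call between the clones, which were at least 385-fold apart for PRICKLE2.

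The pathway of PRICKLE2 and KIF26B, WNT and planar cell polarity, was represented by 37 genes, of which 33 were tested. Between E1 and F2 with DMSO 4 were called (12.1%, beside 7.56% of all genes), 3 higher and 1 lower in E1, with a median log2 difference of 0.04 over the list and 0 over all genes. WNT11 and WNT5A, secreted ligands of the pathway, were higher in E1 by 2.75 ± 0.10 and 1.15 ± 0.08 (limma adjusted p = 2e-13 and 4e-09). FAT4, a giant cadherin, was higher by 2.85 ± 0.21, and the receptor FZD7 was lower by -1.12 ± 0.09 (3.2e-09 and 8.4e-09). With tazemetostat 1 of the 33 was called between the clones (3.03%, beside 6.82% of all genes). That gene was WNT5A, higher in E1 by 1.11 ± 0.08 (limma adjusted p = 1.3e-08). WNT11 then differed by 0.99 ± 0.10, FAT4 by -0.13 ± 0.21 and FZD7 by -0.27 ± 0.09, without a call. In the control line 5 rose with tazemetostat and 1 fell, or 18.2% of those tested, beside 21.3% of all genes, with a median of 0.12 against 0.03. FAT4 rose by 5.41 ± 0.21 and the formin DAAM1, which binds Dishevelled, by 2.32 ± 0.09 (limma adjusted p = 4.9e-14 and 6.3e-14), while FUZ, a planar polarity effector of ciliogenesis, fell by 1.14 ± 0.16 (4e-06). VANGL2, a core membrane protein of the pathway, rose by 2.90 on the log2 scale, from 0.315 to 8.87 normalised counts, and FJX1, a kinase that modifies FAT cadherins, rose by 1.83. VANGL2 passed the filter only through drug-treated libraries.

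Of 20 other cyclic nucleotide phosphodiesterase genes 11 passed the filter, several of them only through drug-treated libraries. In the control line 6 rose and 2 fell, which is no gauge of the family, since a gene near 0 with DMSO could pass only by rising. PDE4B, which breaks down cyclic AMP, went from 0.291 ± 0.504 to 1431 ± 196 normalised counts (limma adjusted p = 4.7e-18), and PDE4D and PDE5A rose by 5.49 and 5.09. PDE7A fell by 1.24 ± 0.08 and PDE8B by 1.77 ± 0.40 (9e-11 and 0.00075), the direction of PDE11A. Between the clones with DMSO 3 were called (27.3%, beside 7.56% of all genes), PDE2A higher in E1 by 3.95 ± 0.28, PDE8B lower by -1.37 ± 0.40 and PDE5A lower by -1.14 ± 0.35 (limma adjusted p = 2.4e-09, 0.011 and 0.016), the last with overlapping libraries. PDE4B had no read in either clone with DMSO and 3788 ± 330 and 4021 ± 116 in E1 and F2 with the drug, so in E1 it was high where PDE11A had 6 reads.

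The genes whose pattern over the 18 libraries was most like each of the 9 were found by Pearson r of log2(normalised count + 1), as a description of points that share lines and treatments. Among the 9 genes themselves r was 0.97 for HMCN1 with RNF182, 0.92 for HMCN1 with PRICKLE2, 0.97 for NAV2 with OGFRL1 and 0.96 for NAV2 with KIF26B. Between the groups it was low, -0.11 for HMCN1 with NAV2. CHI3L1, a secreted chitinase-like protein, was closest to HMCN1 (r = 0.987), with 620.8 ± 93.0 in E1, 50.8 ± 8.89 in the control line and 2.06 ± 1.79 in F2 with DMSO, and CCRL2, a chemokine receptor-like protein, came next (0.977). OLR1, a receptor for oxidised low-density lipoprotein, was closest to PRICKLE2 (0.990), and LTBP2, a matrix protein of the latent TGF-beta binding family, to RNF182 (0.972). LTBP2 was off in no group, with means from 12735.1 in F2 with DMSO to 64552.5 in the drug-treated control line.

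ETNK2, an ethanolamine kinase, was closest to both NAV2 (0.969) and OGFRL1 (0.986), but over a narrow range, from 195.2 ± 25.0 in E1 with DMSO to 755 ± 61.2 in the drug-treated control line. TSPYL2 was closest to KIF26B (0.944), also over a narrow range. Its means ran from 1575 in E1 with DMSO to 2397 in the drug-treated control line. NTRK3, the receptor for neurotrophin-3, was closest to PDE11A (0.990): with DMSO it was at 723.3 ± 65.3 in the control line, at 0 in E1 and at 1636 ± 99.9 in F2, and with tazemetostat at 262.1 ± 8.75, 3.19 ± 3.77 and 173.8 ± 34.4. C9orf64 was closest to ZNF502 (0.979), with 94.7 ± 5.97 in E1, 37.6 ± 12.1 in the control line and no read in F2 with DMSO. For PRKD1 the closest were TRIM49C and TRIM49 (0.969 and 0.967), near-identical copies between which reads may be split, so their values are uncertain.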

How the data were processed

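The authors deposited 1 table of normalised counts for 18 G401 libraries, a signal obtained by dividing the counts of each library by its size factor. Per the submitters' processing notes, Trim Galore 0.4.4, STAR 2.6.0a, HTSeq, DESeq2 and hg19 were used; the annotation and the strand setting are not given in the sources used here. Dividing each library's values by its smallest positive value gave whole reads for 100% of values (tolerance 1e-06), also in the library whose factor of 0.9908 is near 1. The factors ran from 0.812 to 1.145 and differed from median-of-ratios factors by at most 3.3e-15.

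Tests used limma 3.58.1 in R 4.3.3 (lmFit, eBayes with trend) on log2(value + 1) for the 16154 genes with a mean of at least 10. A model with a mean for each of the 6 groups was fitted to all libraries, with no replicate block. P-values were Benjamini-Hochberg adjusted within each of 4 contrasts, and calls needed an adjusted p below 0.05 and a log2 change of at least 1. Log2 changes on this scale understate the change of low genes. The test was tested on simulated data. Fold changes against a group with 0 reads were computed against 3 reads per library, as lower bounds. Ratios to a group with few reads are given as measured, with exact 95% counting intervals. Neither floors nor intervals include any error beyond counting. The intervals use reads summed over the 3 libraries of a group, so the spread between replicates is left out. The libraries also carry no molecular identifiers, so copies made in amplification count as reads.

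The 9 genes and all lists were chosen with earlier results of these data known. Named genes were the 9, RB1 and SMARCB1, 11 paralogues, at most 6 called genes per list and contrast by size, antisense and intronic RNAs named for a member, and the 2 most alike genes for each. Promoter windows and gene order came from RefSeq (GRCh38.p14), transcript starts from GENCODE release 29; no coordinates were converted. A neighbouring gene is counted but not reported here. Alternatives were other pseudocounts, filters, scalings and tools (edgeR 4.0.16 and DESeq2 1.42.0 on the recovered reads), a fit of only the groups compared, the replicate block, and leaving out each library in turn.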

Additional observations from a re-analysis of the deposited data

Results flagged for a closer look

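RNF182, the ubiquitin ligase gene, moved in opposite directions with tazemetostat: its log2 change was 2.29 in the control line and 8.32 in F2, but -0.66 in E1, with every library of each line on its side. KIF26B, the atypical kinesin gene, had 5.52 in the control line and 4.73 in E1, but -0.45 in F2. Neither difference between lines was tested, because E1 and F2 values chose both genes.

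Among related genes the response in E1 minus that in F2 was tested with limma over all genes, of which 5.81% were called. FAT4 differed by -2.98 (limma adjusted p = 7.2e-07) and WNT11 by -1.77 (6.3e-08). FAT4 rose with the drug in both clones, to similar levels. It went from 159.7 ± 13.3 to 1187 ± 109 normalised counts in E1 and from 21.9 ± 6.37 to 1308 ± 209 in F2 (SD, n = 3). WNT11 was at 1102 ± 120 in E1 with DMSO and 276.3 ± 7.19 with the drug, against 162.9 ± 18.7 and 139.2 ± 9.45 in F2. PRKD3 differed by 2.69 (1.7e-09) and PDE2A by -2.83 (5.4e-05), PDE2A being 183.1 ± 37.9 with DMSO and 92.9 ± 13.7 with the drug in E1, but 12.0 ± 6.23 and 41.9 ± 2.39 in F2. PDE9A differed by -2.59 (0.0068) and NAV3 by 1.86 (0.027) in limma. In edgeR the differences were -2.57 and 2.46 and in DESeq2 -2.55 and 2.6, without a call (adjusted p = 0.37 and 0.32 in edgeR, 0.3 and 0.32 in DESeq2).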

How the results depend on the processing

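In the control line the 8 calls among the 9 genes, PRKD1 included, held under every alternative run. Leaving out any 1 library kept the number of calls at 8. The largest adjusted p among them was 3.6e-06, for RNF182, while that of ZNF502 reached 0.25. PRKD1 passed the filter only through drug-treated E1, whose libraries helped to pick it. Without PRKD1 the main run called 7 of 8, a description beside the 21.3% of all tested genes called. Counts over all genes moved with the filter. Without it, 5720 genes were called in the control line (3436 with it) and 2001 between drug-treated E1 and F2 (1101), and the phosphodiesterase list gave 14 (8). With a mean of at least 50, the counts were 792 between the clones with DMSO (1222), 605 with tazemetostat, 605 for the difference of responses (938) and 5 phosphodiesterases. Leaving out 1 library gave 3420 to 3505, 1215 to 1271, 1017 to 1209 and 827 to 1067 in the 4 contrasts. No called result changed direction. The call of NAV3 for the difference of responses was lost without E1 DMSO library 1 (adjusted p = 0.071), without F2 DMSO library 1 (0.071) or 2 (0.068), without E1 tazemetostat library 2 (0.058) or 3 (0.059) and without F2 tazemetostat library 1 (0.06) or 3 (0.053), with a pseudocount of 0.5 (0.093) and with no filter (0.07), and that of PDE9A with a pseudocount of 0.5 (0.059). The cause was not tested. Differences against groups at 0 depend on the pseudocount, as for PRICKLE2 between E1 and F2 with DMSO, 7.97 to 13.33 on the log2 scale.

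The replicate numbers were not taken as pairs: same-numbered libraries correlated by -0.303 to 0.375 in their deviations from group means (median 0.054 over 45 correlations). With the replicate block the 4 counts were 3444, 1225, 1108 and 935. Among the 3444 genes called in the control line were again 8 of the 9 genes, PRKD1 included. Depth limits genes at or below 3 reads, where differences between DMSO groups could not be read. Taking a gene as off up to 10 reads a library in place of 3, chosen after seeing the data, raised the on-off counts given under other observations to 20 and 15.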

Other observations

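A count over the whole table was added after the data were seen, with a gene taken as on where each of the 3 DMSO libraries of a clone held at least 100 normalised counts, and off where each held 3 reads or fewer. By this measure 10 genes were on in E1 and off in F2, among them HMCN1, RNF182, PRICKLE2 and ZNF502, and 8 were on in F2 and off in E1, among them PDE11A. NAV2, OGFRL1, KIF26B and PRKD1 met neither condition.

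The genes differed in what they did in the off clone once tazemetostat was given. Of the 10 off in F2, 6 were on there with the drug: HMCN1, RNF182, PRICKLE2, the secreted protein gene CHI3L1, the lipoprotein receptor gene OLR1 and PLXNA2, a semaphorin receptor gene. ZNF502 and RP11-493L12.3 stayed at the floor, and CCRL2 and RP11-24F11.2 lay between. Of the 8 off in E1, none was on there with the drug, 4 stayed at the floor (PDE11A, ZNF813, AC012499.1 and AC073834.3) and 4 lay between (NTRK3, NFIB, RAG2 and GYLTL1B). This depends on the limit of 3 reads. OGFRL1 and NAV2, with up to 10 and 12 reads in an E1 DMSO library, fell outside it. Both were high in drug-treated E1, with means of 6465 and 12229. Whether the sets off in F2 and off in E1 differ was not tested, since both were chosen by values of the same libraries. The control line with DMSO was on for 4 of the 10 and 5 of the 8.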
